A study of Mus musculus with 14 samples.

Results

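The genes described here are 10 members of the NF-kB pathway measured in mouse hippocampus by bulk RNA-seq. They are the 5 subunits Nfkb1, Nfkb2, Rela, Relb and Rel, the IkB-type regulators Nfkbia, Nfkbie, Nfkbiz and Bcl3, and the deubiquitinase Tnfaip3. The members were chosen by name, and each was found once among the 55536 Ensembl genes of the count table. All 10 had at least 10 counts in total and were among the 38070 genes tested. The 14 libraries came from mice of 10 months of age on a C57BL/6 background. The 4 MRL libraries are B6.MRL-Faslpr/J, which carry the lpr mutation of the death receptor gene Fas and develop lupus-like disease. The 4 MRL-IRAK4-KD libraries are labelled as lpr together with a kinase-dead IRAK4, the 3 IRAK4-KD libraries as the kinase-dead IRAK4 alone, and the 3 C57BL/6 libraries as neither. The Fas transcripts of the library labelled IRAK4-KD 3 went against its label, as given below. Both mutations belong to the whole animal, and the methods name no cell type to which either was restricted. Mice were perfused with PBS before the hippocampus was dissected. Each numbered library was taken as 1 mouse. The labels do not say more about the source of each number, so p-values measure the spread between these libraries.

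NF-kB is a family of transcription factors that pair as dimers through a shared Rel homology region. In resting cells the dimers are held in the cytoplasm by IkB proteins, and receptors of the Toll-like and IL-1 families release them by a chain of MyD88, the IRAK kinases, TRAF6 and the IKK complex, which marks the IkB proteins for degradation. Several genes of the pathway are themselves induced by NF-kB, so that the mRNA of inhibitors such as Nfkbia and Tnfaip3 rises when the pathway is active and closes a feedback loop. In the brain the pathway is known from microglia, endothelium and astrocytes during inflammation, and from neurons. The levels below are mRNA levels and do not measure how much of any subunit was in the nucleus.

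Promoter windows of RefSeq, from 250 bases before to 50 bases after a start of transcription on build GRCm38.p6, were found for 7 of the 10 genes, with 10 windows in all. The tables used held none for Nfkb1, Relb and Nfkbiz. The windows of Bcl3, the gene in which the MRL mice lay above all others, and of Nfkbia and Rela, in which they lay above all but MRL-IRAK4-KD 4, are shown 5′ to 3′ on the strand of the gene, with matches to the kappa-B consensus, the 10-base sequence that NF-kB dimers bind, in capitals. Both strands were searched, and overlapping matches were counted as 1 site.

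Bcl3, chr7:19822706-19823005, minus strand: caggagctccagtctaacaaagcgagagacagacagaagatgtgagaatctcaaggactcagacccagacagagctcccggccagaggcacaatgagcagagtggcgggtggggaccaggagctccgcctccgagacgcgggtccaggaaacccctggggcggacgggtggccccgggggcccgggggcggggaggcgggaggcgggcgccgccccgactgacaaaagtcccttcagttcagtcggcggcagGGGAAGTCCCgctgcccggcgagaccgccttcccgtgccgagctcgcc

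Nfkbia, chr12:55492598-55492897, minus strand: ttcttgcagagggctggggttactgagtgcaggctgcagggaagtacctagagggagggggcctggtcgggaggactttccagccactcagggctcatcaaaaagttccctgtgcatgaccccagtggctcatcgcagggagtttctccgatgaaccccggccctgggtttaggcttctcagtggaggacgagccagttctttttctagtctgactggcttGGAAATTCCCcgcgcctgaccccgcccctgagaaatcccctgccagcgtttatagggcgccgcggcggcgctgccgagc

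Rela, chr19:5637291-5637590, plus strand: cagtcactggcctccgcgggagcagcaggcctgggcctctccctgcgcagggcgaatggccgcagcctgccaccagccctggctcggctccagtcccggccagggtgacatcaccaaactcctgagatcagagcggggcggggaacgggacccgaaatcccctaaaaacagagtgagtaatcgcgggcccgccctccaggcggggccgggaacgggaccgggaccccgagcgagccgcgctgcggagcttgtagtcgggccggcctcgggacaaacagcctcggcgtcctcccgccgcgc

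The Bcl3 window held 1 site, GGGAAGTCCC, which matched on both strands at bases 3 to 12 of the transcript. The Nfkbia window held 1 site, GGAAATTCCC, from 29 to 20 bases before the start, and the Rela window held none. Among the other members, the Rel window held GGGAAATCCCC, the first Nfkb2 window held GGGAATTCCCC and GGGGCTTTCC, the Nfkbie window held GGGGGATTCC, and 1 of the 2 Tnfaip3 windows held GGGACACCCC and GGAAATCCCC. In all, 8 of the 10 member windows and 6 of the 7 members held a site, against 8.46% of the 32851 windows in the table. That share is by window and not by gene. The Nfkb2 windows starting at 46305445 and 46305680 overlap and share the site GGGACTTTCC, so the member windows are not independent. A match describes the sequence only, and binding was not measured.

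A pair of libraries stood apart before any comparison was made, and results of the members that rest on them are given with and without them. MRL-IRAK4-KD 4 had a score of 122 on the first principal component, which held 47.0% of the variance, while the other 13 libraries lay between -21.0 and 5.1. Its genes above 6000 bases of exon sequence were lower, relative to its genes under 2000 bases, by 1.10 on the log2 scale, where the other libraries lay between -0.13 and 0.31. Its choroid plexus markers summed to 7800 CPM, against 66.8 to 1850 CPM in the others, and their part in the results was not tested. Its input by Qubit was 27.4, against 39.6 to 43.7 in the others. The library labelled IRAK4-KD 3 had 0 counts of Fas-201 and 514 of Fas-204, the pattern of the lpr groups, whereas Fas-201 had up to 386 counts in its group. Its striatal and thalamic markers summed to 297 CPM, against 85.3 to 176 in the others. Total counts ran from 279941472 to 572398312 per library, and StringTie derives them from coverage, so that they are not numbers of independent molecules.

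Levels were expressed as CPM, gene counts scaled to a common total of the library, and, where genes are compared with one another, as CPM per kilobase of transcript. Per kilobase, averaged over the 14 mice, Nfkbia was the highest of the 10 at 11.5 ± 4.65 (SD, n = 14). Rela at 5.62 ± 0.588 and Nfkb1 at 5.30 ± 0.555 followed, and these neighbours did not differ beyond their spread, Rela being higher in 9 of 14 mice. Nfkbiz at 2.54 ± 0.280 and Relb at 2.50 ± 0.302 also lay within their spread, Nfkbiz being higher in 6 of 14 mice. Tnfaip3 at 1.11 ± 0.334 was above Nfkbie at 0.846 ± 0.129 in 13 of 14 mice. Nfkb2 at 0.675 ± 0.144 and Rel at 0.610 ± 0.133 lay within their spread, Nfkb2 being higher in 8 of 14 mice. Bcl3 was the lowest at 0.218 ± 0.137 CPM per kilobase, below Rel in 14 of 14 mice. These levels depend on how counts were divided among transcripts. Per kilobase of all exons of the gene, a scale chosen after seeing the data, Nfkb1 was at 1.45 ± 0.101 against 4.84 ± 0.534 for Rela, so that the nearness of these subunits did not hold there. On that scale Nfkbie was above Tnfaip3 and Rel above Nfkb2 in the mean, while Nfkbia and Rela remained the highest and Bcl3 the lowest.

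Of the 10 members, Bcl3 had the largest fitted difference of MRL from MRL-IRAK4-KD and from C57BL/6 mice. Neither difference passed the adjustment over all genes by edgeR. Bcl3, an atypical IkB protein of the nucleus that binds homodimers of p50 or p52 and can turn them into activators, was higher in every MRL mouse than in every other mouse. The gene lies on chromosome 7 from 19808462 to 19822770 on the minus strand of mm10, 179.0 kb from Relb. In MRL mice Bcl3 was at 0.585, 0.424, 0.351 and 1.19 CPM. In MRL-IRAK4-KD mice it was at 0.307, 0.272, 0.163 and 0.213 CPM. In C57BL/6 mice it was at 0.214, 0.111 and 0.160 CPM, and in IRAK4-KD mice at 0.255, 0.188 and 0.164 CPM. The lowest MRL mouse was thus above the highest of the other 10, although MRL 4 alone lay far above the other MRL mice. The same separation was found for 0.728% of the genes tested. Counts behind these values ran from 32 to 569.

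Bcl3 was 2.66-fold higher in MRL than in MRL-IRAK4-KD mice, with a log2 fold change of 1.41 (SE 0.39). This difference did not pass the adjustment over all genes, with an adjusted p of 0.366 by edgeR's quasi-likelihood test and an unadjusted p of 0.00275. The 2-sided exact permutation test gave p = 0.0286, which is the smallest that 4 mice against 4 can give. Against C57BL/6 mice Bcl3 was 3.93-fold higher in MRL, a log2 fold change of 1.97 (SE 0.44) with an unadjusted p of 0.000542 and an adjusted p of 0.547 by edgeR. The exact permutation test of this comparison gave 0.0571, the smallest that 4 against 3 allows. DESeq2 put Bcl3 past the threshold in both comparisons, with adjusted p of 0.0416 and 0.00472, and limma-voom with quality weights did not, with 0.157 and 0.173. Over the alternatives run, edgeR settings and the other tools included, the adjusted p ranged from 0.0416 to 0.643 against MRL-IRAK4-KD and from 0.00472 to 1.0 against C57BL/6.

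The Bcl3 difference did not rest on MRL 4 for its direction. Without MRL 4 the log2 fold change against MRL-IRAK4-KD was 0.94, with an unadjusted p of 0.0152 by edgeR, and against C57BL/6 it was 1.5. The unadjusted p stayed under 0.05 in 8 of 8 fits that left out 1 mouse for the first comparison and in 7 of 7 for the second. The transcript Bcl3-201 held 89.6% of the Bcl3 counts over all libraries. By library its share ran from 0.0%, in C57BL/6 2, to 99.5%. Between the groups labelled as free of lpr, Bcl3 in IRAK4-KD against C57BL/6 gave a log2 fold change of 0.32 (SE 0.45), and 0.45 without the library labelled IRAK4-KD 3. Between the groups with the kinase-dead IRAK4 it gave 0.24 (SE 0.42), and 0.11 without that library. The difference between the effects of the mutation in the lpr background and outside it, the interaction, was 1.73 (SE 0.59) for Bcl3 with an unadjusted p of 0.0112 and an adjusted p of 0.914 by edgeR. It had an unadjusted p under 0.05 in 14 of 14 fits that left out 1 mouse, and was 1.86 without the library labelled IRAK4-KD 3.

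The summed markers of vessels were also highest in the MRL mice. The 8 endothelial markers, all of them detected in every library, summed to between 198 and 327 CPM in MRL, 137 and 172 in MRL-IRAK4-KD, 139 and 155 in C57BL/6 and 94.2 and 121 in IRAK4-KD mice. MRL 4, the mouse with the highest Bcl3, had the highest endothelial sum, and the ranges of MRL and the other groups did not overlap. The sums of IRAK4-KD mice lay below those of C57BL/6 mice. The fitted Bcl3 difference between these groups was 0.32 (SE 0.45), smaller than its error, so its direction was not settled. Markers of microglia summed to between 372 and 480 CPM in MRL and 304 and 393 in the other groups. The 10 blood cell markers summed to between 86.0 and 376 CPM in MRL and 21.8 and 197 in the others, and the 10 lymphocyte markers to between 15.7 and 24.9 CPM over all mice. From MRL 1 to MRL 4, Bcl3 was at 0.585, 0.424, 0.351 and 1.19 CPM. In that order the blood cell sums were 376, 159, 86.0 and 373 CPM and the endothelial sums 218, 198, 199 and 327 CPM. The microglial sums were 480, 387, 372 and 411 CPM. The part of these cell types in the Bcl3 result was not tested. In a bulk sample more cells of a type and more RNA per cell cannot be told apart.

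**Figure D1:**
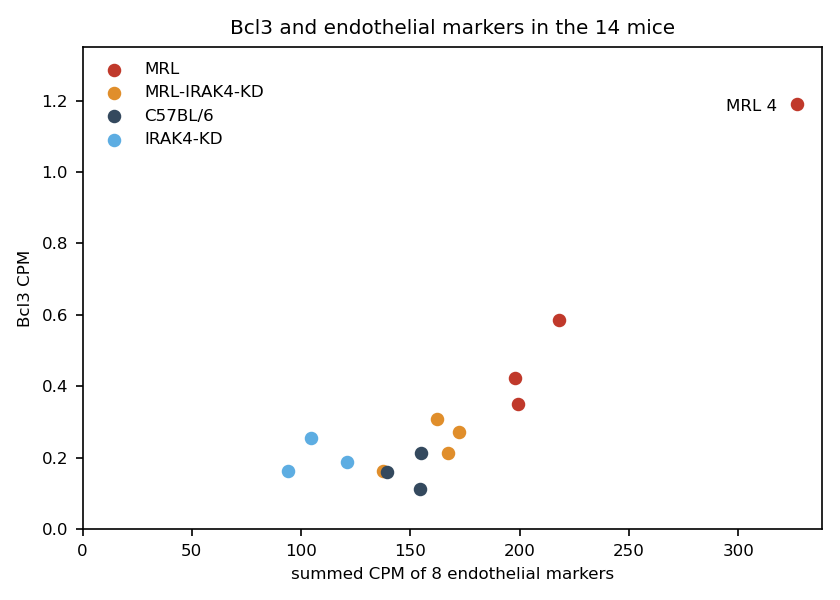
Bcl3 level in CPM (vertical) against the summed CPM of 8 endothelial markers (horizontal), with 1 point per mouse coloured by group. The 4 MRL mice lie above 0.35 CPM of Bcl3 and at or above 198 CPM of endothelial markers, with MRL 4 at 1.19 and 327, and the other 10 mice lie below them on both axes.

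Nfkbia and Rela were also higher in MRL mice than in the other groups, by smaller amounts, once MRL-IRAK4-KD 4 was set aside. Nfkbia encodes IkB-alpha, the main inhibitor that NF-kB induces against itself, and lies on chromosome 12 from 55489410 to 55492647. In MRL mice Nfkbia was at 18.1, 20.5, 22.1 and 20.8 CPM. In MRL-IRAK4-KD mice it was at 14.9, 13.4, 16.8 and 41.1 CPM, the last value being that of MRL-IRAK4-KD 4. In C57BL/6 mice Nfkbia was at 12.8, 15.8 and 13.7 CPM, and in IRAK4-KD mice at 14.2, 16.9 and 11.8 CPM. All 4 MRL mice thus lay above 9 of the other 10, and the exception was more than any MRL mouse. Separation of the MRL mice from those 9 was found for 0.972% of the genes tested.

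Rela encodes p65, the main activating subunit of the classical pathway, and lies on chromosome 19 from 5637483 to 5648130. In MRL mice Rela was at 15.9, 16.8, 17.3 and 15.2 CPM, and in MRL-IRAK4-KD mice at 14.8, 14.4, 14.8 and 18.0 CPM. In C57BL/6 mice it was at 12.7, 13.8 and 14.5 CPM, and in IRAK4-KD mice at 13.9, 13.5 and 12.5 CPM. Here too the MRL mice lay above every other mouse but MRL-IRAK4-KD 4. Rela and Nfkbia varied together over the 14 mice, with a Pearson r of 0.850, and of 0.848 without MRL-IRAK4-KD 4. This is a description over libraries that share groups and scaling. Rela lies 28.6 Mb and Nfkb2 12 Mb from Fas on chromosome 19, and sequence from the donor strain around lpr cannot be told apart here from an effect of the Fas mutation itself.

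With all mice fitted, Nfkbia in MRL minus MRL-IRAK4-KD was -0.08 on the log2 scale (SE 0.28). Without MRL-IRAK4-KD 4 it was 0.44 (SE 0.12), with an unadjusted p of 0.00261 and an adjusted p of 0.302 by edgeR. Against C57BL/6 the Nfkbia difference was 0.53 (SE 0.31), a fold of 1.45, with an unadjusted p of 0.109 and an adjusted p of 0.931 by edgeR, and the exact permutation p was 0.0571. For Rela the difference of MRL from C57BL/6 was 0.25 (SE 0.11), a fold of 1.19, with an unadjusted p of 0.0311 and an adjusted p of 0.895 by edgeR. The Rela difference of MRL from MRL-IRAK4-KD was 0.08 (SE 0.10), and 0.16 without MRL-IRAK4-KD 4. None of these differences passed the adjustment over all genes.

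**Figure D2:**
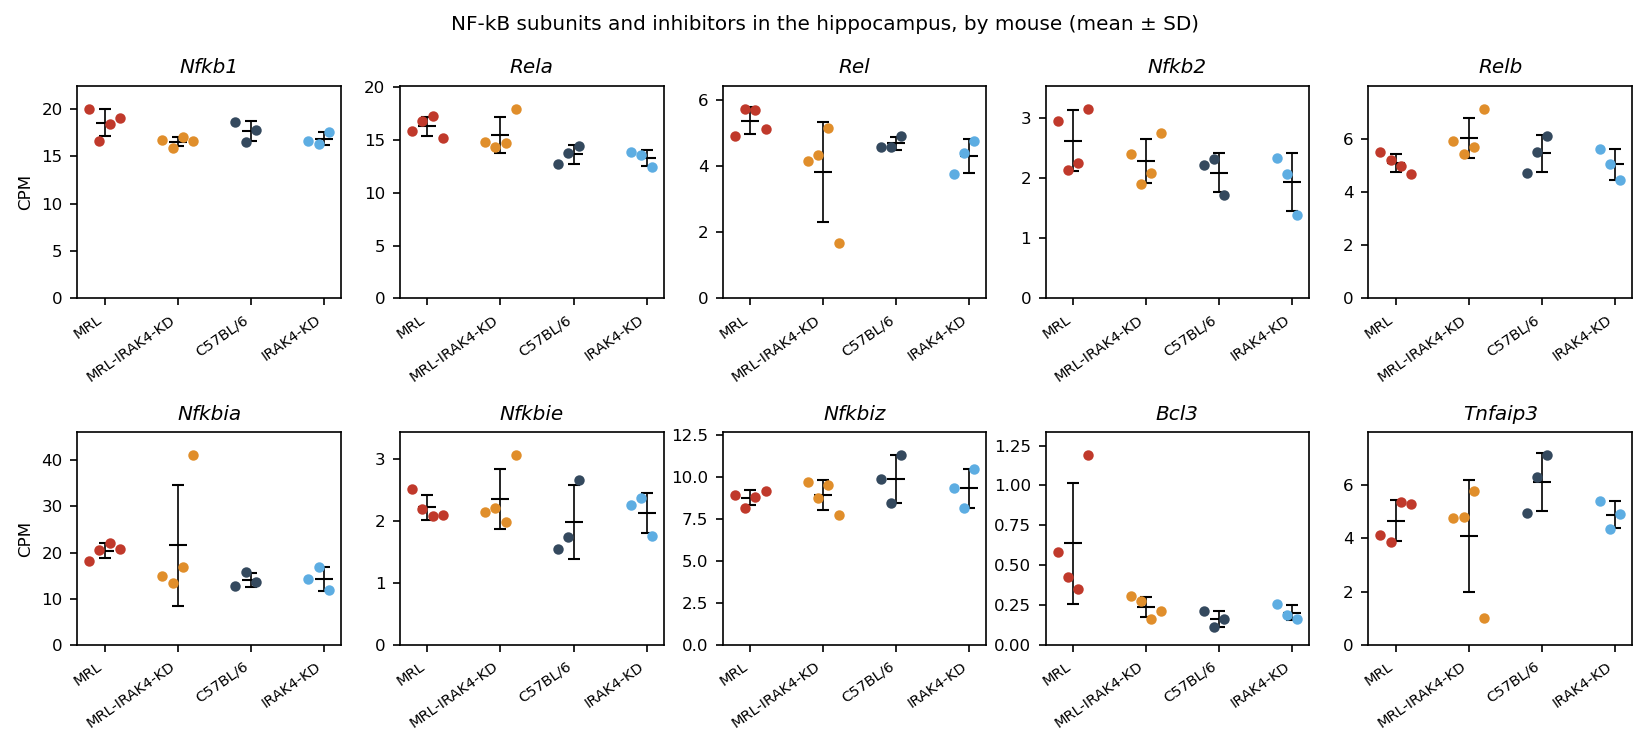
Level in CPM (vertical, from 0) of each of the 10 genes in the 14 mice by group, with points for mice in order of their number and bars for the mean ± SD. Bcl3 is at 0.351 to 1.19 CPM in MRL and at most 0.307 elsewhere, and MRL-IRAK4-KD 4 lies apart from its group for Nfkbia at 41.1, Rel at 1.67 and Tnfaip3 at 1.02 CPM.

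The remaining subunits showed little or no separation of groups. Nfkb1 encodes p105, the precursor of p50, and lies on chromosome 3 from 135584655 to 135691547. Nfkb1 ranged from 16.7 to 20.0 CPM in MRL, 15.8 to 17.0 in MRL-IRAK4-KD, 16.6 to 18.7 in C57BL/6 and 16.3 to 17.6 in IRAK4-KD mice, and MRL minus MRL-IRAK4-KD was 0.16 (SE 0.09). Its transcripts could not be followed, since the full-length Nfkb1-201 was listed at 0 counts in 3 libraries and at up to 78.0% of the gene's counts in others. Rel, on chromosome 11 from 23736847 to 23770970, was at 4.92, 5.74, 5.70 and 5.13 CPM in MRL mice and at 4.14, 4.33, 5.16 and 1.67 in MRL-IRAK4-KD mice. Rel in C57BL/6 mice was at 4.57, 4.58 and 4.92 CPM, all below the lowest MRL mouse, although the lowest MRL and the highest C57BL/6 mouse were nearly equal. The Rel difference of 0.49 (SE 0.25) between MRL and MRL-IRAK4-KD was 0.25 without MRL-IRAK4-KD 4.

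The subunits of the alternative pathway, in which the kinase NIK drives p100 to p52 for dimers with RelB, did not move together. Nfkb2, on chromosome 19 from 46304320 to 46312385, was at 2.95, 2.14, 2.25 and 3.15 CPM in MRL, and between 1.39 and 2.74 CPM in the other 10 mice. MRL minus MRL-IRAK4-KD was 0.20 for Nfkb2 (SE 0.20), and it was 0.31 without MRL-IRAK4-KD 4, 0.12 without MRL 4 and 0.13 without MRL 1. Relb, on chromosome 7 from 19606217 to 19629438, was at 5.49, 5.20, 4.96 and 4.68 CPM in MRL and at 5.91, 5.42, 5.69 and 7.13 in MRL-IRAK4-KD mice. For Relb the difference had the opposite sign, -0.25 (SE 0.13) with an exact permutation p of 0.0571, and it was -0.15 without MRL-IRAK4-KD 4. Between MRL-IRAK4-KD and IRAK4-KD the Relb difference was 0.26 (SE 0.14), and 0.17 without MRL-IRAK4-KD 4. Its interaction was -0.36 (SE 0.20) with an adjusted p of 0.914 by edgeR, and -0.19 without both libraries that stood apart. Relb and Bcl3, which lie 179.0 kb apart on chromosome 7, had a Pearson r of -0.28 over the 14 mice.

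Among the other inhibitors, Tnfaip3 encodes A20, which removes ubiquitin chains from proteins upstream of IKK, and lies on chromosome 10 from 19000910 to 19015657. Tnfaip3 was at 4.13, 3.89, 5.37 and 5.31 CPM in MRL and at 4.78, 4.82, 5.77 and 1.02 in MRL-IRAK4-KD mice. In C57BL/6 mice Tnfaip3 was at 4.97, 6.32 and 7.13 CPM, and in IRAK4-KD mice at 5.40, 4.37 and 4.94 CPM. The C57BL/6 mice thus reached the highest values, and the Tnfaip3 difference of MRL from C57BL/6 was -0.39 (SE 0.39), opposite in sign to that of Nfkbia, with overlapping groups. MRL minus MRL-IRAK4-KD was 0.19 for Tnfaip3 (SE 0.36) in all mice and -0.13 without MRL-IRAK4-KD 4.

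Nfkbie encodes IkB-epsilon, which acts with a delay after IkB-alpha, and lies on chromosome 17 from 45555703 to 45563169. It ranged from 2.07 to 2.51 CPM in MRL, 1.98 to 3.05 in MRL-IRAK4-KD, 1.54 to 2.65 in C57BL/6 and 1.75 to 2.37 in IRAK4-KD mice, so that all groups overlapped. Nfkbiz encodes IkB-zeta, a nuclear partner of p50 needed for a second wave of targets in Toll-like receptor responses, and lies on chromosome 16 from 55811375 to 55838899. It ranged from 8.17 to 9.19 CPM in MRL, 7.75 to 9.73 in MRL-IRAK4-KD, 8.48 to 11.3 in C57BL/6 and 8.16 to 10.5 in IRAK4-KD mice. Neither gene had an unadjusted p under 0.05 by edgeR in any comparison.

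The library MRL-IRAK4-KD 4 departed from its group in most members, by an amount that differed with gene length. Relative to the mean of the other 3 MRL-IRAK4-KD libraries, the short Nfkbia, with 1610 bases of exon sequence, was higher by 1.45 on the log2 scale. Rel with 7466 bases differed by -1.44 and Tnfaip3 with 7226 bases by -2.32. Of the 10 members, 4 had their highest and 3 their lowest value of all 14 mice in this library. Nfkb1, whose summed exons reach 12061 bases, was an exception at 0.01, and Bcl3 with 2475 bases was at -0.22. The Pearson r between Rel and Tnfaip3 over the mice, 0.850, was -0.07 without this library, and of 45 pairs of members 9 had an r below -0.5 with it and 1 without it.

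**Figure D3:**
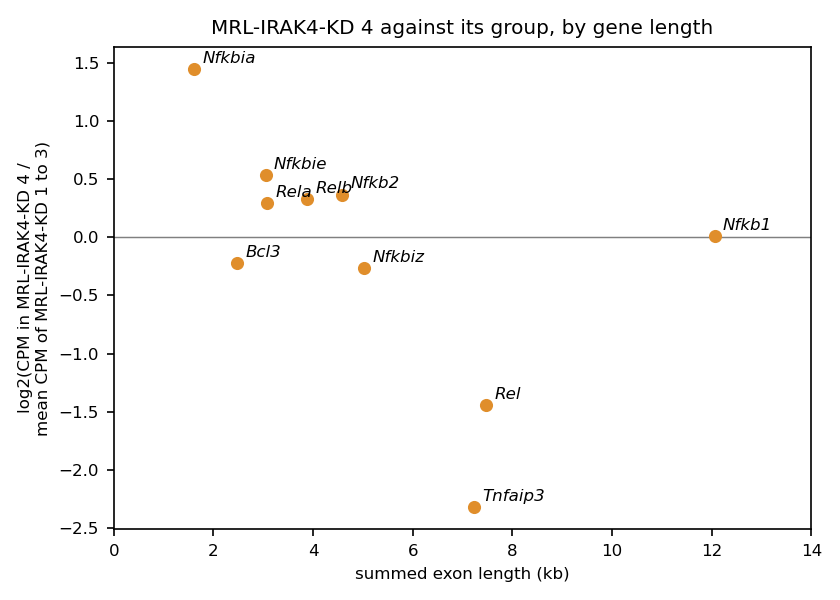
Log2 ratio of the CPM in MRL-IRAK4-KD 4 to the mean of the other 3 MRL-IRAK4-KD mice (vertical) against summed exon length in kilobases (horizontal) for the 10 genes. Nfkbia, the shortest, lies at 1.45, and Rel and Tnfaip3 lie at -1.44 and -2.32, while the longest, Nfkb1, lies at 0.01.

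With all mice fitted by edgeR, few of the 10 members passed a threshold. In MRL against MRL-IRAK4-KD mice 0 of 10 passed an adjusted p of 0.05 by edgeR, where 0.0972% of all genes did. At an unadjusted p under 0.05, 1 member (Bcl3) was higher and 0 were lower, where 11.4% of all genes were called, 5.14% as higher and 6.23% as lower. Without MRL-IRAK4-KD 4 there were 4 such members (Nfkb1, Rela, Nfkbia and Bcl3), all higher, where 8.52% of all genes were called. Limma-voom with quality weights had 0 members past an adjusted p of 0.05, where 0.609% of all genes were past it, and DESeq2 had 1, where 0.914% were. The members' median log2 fold change was 0.12, beside 0.00 over all genes tested. Between MRL and C57BL/6 mice 0 members passed the adjusted threshold by edgeR, as did 0.0% of all genes, and DESeq2 again called 1 member, beside 0.428% of all genes. There 2 members (Rela and Bcl3) had an unadjusted p under 0.05, both higher, where 5.55% of all genes were called and 3.16% were higher, and the median was 0.18 beside 0.00. In 4 of 10 members (Rela, Rel, Nfkbia and Bcl3) the MRL mice lay wholly above the C57BL/6 mice, where 4.47% of all genes did.

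In the groups labelled as free of lpr no difference between IRAK4-KD and C57BL/6 was detected in the members. Between IRAK4-KD and C57BL/6 mice 0 of 10 had an adjusted or an unadjusted p under 0.05 by edgeR, where 0.147% and 3.8% of all genes did, and 0 had non-overlapping groups, where 5.63% of all genes were higher and 5.52% lower without overlap. The log2 fold changes lay between -0.33 (SE 0.42) for Tnfaip3 and 0.32 (SE 0.45) for Bcl3, with a median of -0.07, and these errors leave room for a difference. Leaving out IRAK4-KD 3 also gave 0 members at an unadjusted p under 0.05, and the share of all genes in that fit is not given. No exact permutation test of 3 mice against 3 can go below 0.10. Between MRL-IRAK4-KD and IRAK4-KD mice 0 members had an adjusted or an unadjusted p under 0.05 by edgeR, beside 0.0735% and 8.63% of all genes. The groups of Rela did not overlap there, with a difference of 0.22 (SE 0.11), where 4.31% of genes were higher without overlap, and the difference was 0.14 without MRL-IRAK4-KD 4. Nfkbia differed by 0.59 (SE 0.31), and by 0.08 without MRL-IRAK4-KD 4. In the interaction 1 member, Bcl3, had an unadjusted p under 0.05, where 4.17% of all genes did, and 0 passed the adjustment, where 0.00263% did. The comparisons share groups, so their values stand side by side and are not independent.

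**Figure D4:**
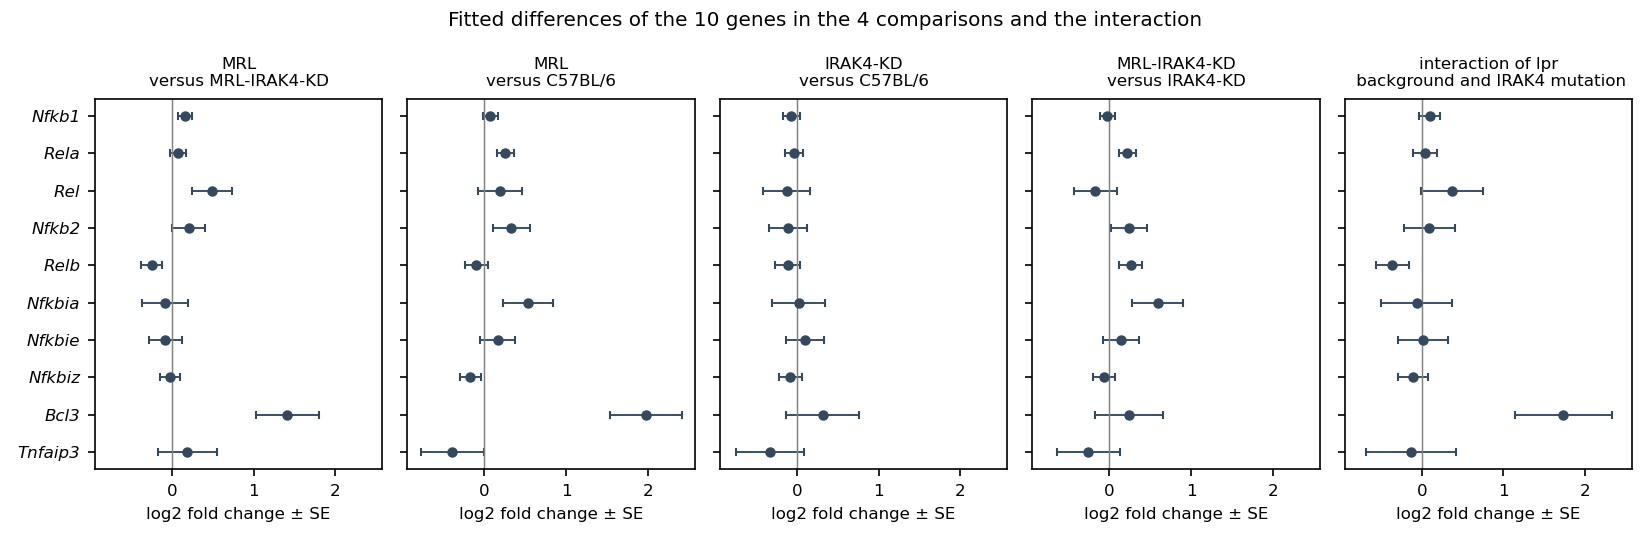
Fitted log2 fold change ± SE (horizontal) of the 10 genes (vertical) in the 4 comparisons and the interaction. Bcl3 lies at 1.41 and 1.97 in the 2 MRL comparisons and at 1.73 in the interaction, and the other 9 genes lie between -0.39 and 0.59.

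The rest of the pathway was described by 3 lists of genes. Differences of single list genes other than Tnip1 come from the fit of all mice. The first list held 42 genes known as targets of NF-kB in inflammation. It was drawn up with earlier results of these data known, so its counts are a description. Between MRL and MRL-IRAK4-KD mice 14 were higher and 1 was lower at an unadjusted p under 0.05, beside 5.14% and 6.23% of all genes. There 0 passed the adjusted threshold by edgeR and 3 did by DESeq2, and the median log2 fold change was 0.47. Between MRL and C57BL/6 mice 9 were higher, beside 3.16% of all genes, and 0 lower, with a median of 0.33 and 0 past the adjusted threshold by edgeR and 1 by DESeq2. The 3 targets with the smallest p against MRL-IRAK4-KD were the chemokine gene Cxcl10 at 1.78 (SE 0.45), Selp, an adhesion molecule of activated endothelium, at 2.79 (SE 0.72), and the chemokine gene Ccl2 at 1.48 (SE 0.40). Against C57BL/6 they were Ccl2 at 1.66 (SE 0.45), the adhesion molecule gene Icam1 at 1.06 (SE 0.29) and Lcn2, which encodes lipocalin 2, at 3.54 (SE 1.18).

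These targets leaned on MRL 4, the mouse with the highest Bcl3 and the highest endothelial sum. Of the 14 targets higher than in MRL-IRAK4-KD, 11 had their highest MRL value in MRL 4, and of the 9 higher than in C57BL/6, 7 did. Icam1 ranged from 2.71 to 6.60 CPM in MRL and from 1.23 to 2.47 in all other mice, and Lcn2 from 0.906 to 15.1 in MRL. Ccl2 was an exception, at 0.131 to 0.200 CPM in MRL with its highest value in MRL 1, and at 0.0347 to 0.0867 in the other 10 mice, on 14 to 94 counts. Without MRL 4, the number of targets higher at an unadjusted p under 0.05 went from 14 to 9 against MRL-IRAK4-KD and from 9 to 2 against C57BL/6, and it was 5 against C57BL/6 without C57BL/6 3. The shares of all genes called in these reduced fits are not given.

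Between IRAK4-KD and C57BL/6 mice, where 3.8% of all genes were called at an unadjusted p under 0.05, 1 target was lower and 0 were higher, Cd40 at -0.89 (SE 0.38), with Il1a at -0.58 (SE 0.30) and Ccrl2 at -0.51 (SE 0.27) next by p, and the median was -0.18. Between MRL-IRAK4-KD and IRAK4-KD mice, where 8.63% of all genes were called, 1 target was higher, the immunoproteasome subunit gene Psmb9 at 0.82 (SE 0.34). Bcl2l1 at 0.20 (SE 0.10) and Ccrl2 at 0.42 (SE 0.25) came next. In the interaction, where 4.17% of all genes were called, 2 were higher, Ccl2 at 1.63 (SE 0.61) and Selp at 2.37 (SE 1.07), with Lcn2 at 3.07 (SE 1.49) next. Without the library labelled IRAK4-KD 3, 0 targets had an unadjusted p under 0.05 by edgeR in IRAK4-KD against C57BL/6 mice. Without it, 0 were higher and 1 was lower in MRL-IRAK4-KD against IRAK4-KD mice, and 2 were higher in the interaction. The shares of all genes called without that library are not given.

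The 23 genes of the IKK complex and its upstream adaptors had medians between -0.11 and 0.16. In MRL against MRL-IRAK4-KD mice, where 11.4% of all genes were called, 1 was higher, Map3k14, which encodes NIK, at 0.46 (SE 0.16), and 1 was lower, Sharpin, a subunit of the linear ubiquitin ligase, at -0.43 (SE 0.20), with Btrc at 0.22 (SE 0.11) next. Sharpin reached 62.5 CPM in MRL-IRAK4-KD 4 against 26.0 to 31.6 in the MRL, C57BL/6 and IRAK4-KD mice. Between MRL and C57BL/6 and between IRAK4-KD and C57BL/6 mice 0 of 23 had an unadjusted p under 0.05, and the smallest were those of Traf5 at 0.33 (SE 0.23), Myd88 at 0.14 (SE 0.14) and Birc2 at 0.15 (SE 0.15) in the first, and of Map3k14 at -0.29 (SE 0.18), Birc2 at 0.25 (SE 0.16) and Tradd at -0.26 (SE 0.17) in the second. Between MRL-IRAK4-KD and IRAK4-KD mice, beside 8.63% of all genes called, Tradd was higher at 0.44 (SE 0.16) and Chuk, the IKK-alpha gene, lower at -0.31 (SE 0.12), with Sharpin next. Within the MRL-IRAK4-KD group, MRL-IRAK4-KD 4 had the highest Tradd, 4.41 CPM against a group median of 3.59. It also had the lowest Chuk, 32.9 CPM against a group median of 39.6. In the interaction 0 were called, with Birc2 at 0.37 (SE 0.21), Tradd at -0.36 (SE 0.22) and Chuk at 0.27 (SE 0.17) first by p. Irak4 itself was at 1.54 to 2.72 CPM in all mice, and the kinase-dead allele cannot be read from its level.

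Of the 16 other inhibitors of NF-kB, Tnip1 was the only gene of the 3 lists past the adjusted threshold by edgeR in any result. Tnip1 encodes ABIN1, which binds A20 and ubiquitin chains and restrains the pathway, and lies on chromosome 11 from 54910785 to 54962917. It ranged from 17.6 to 18.6 CPM in MRL and from 17.2 to 20.1 in C57BL/6, but from 24.7 to 31.2 in MRL-IRAK4-KD and from 29.4 to 30.8 in IRAK4-KD mice. The groups with the kinase-dead IRAK4 thus lay wholly above those without it. Irak4 lies on chromosome 15, and other inherited differences of the kinase-dead line cannot be told apart here from an effect of the mutation. MRL differed from MRL-IRAK4-KD mice by -0.65 (SE 0.09, adjusted p = 0.00934 by edgeR), and IRAK4-KD from C57BL/6 mice by 0.67 (SE 0.11, adjusted p = 0.0184 by edgeR). The interaction was 0.02 (SE 0.14), so that no difference between the backgrounds was detected, and MRL-IRAK4-KD 4 and IRAK4-KD 3 did not depart from their groups. The first call was lost, with adjusted p between 0.0548 and 0.0957 by edgeR, without MRL 2, MRL 3, MRL 4, MRL-IRAK4-KD 2 or MRL-IRAK4-KD 3, and with only the 2 groups fitted, with 0.269. The second was lost without any 1 of its 6 mice, with adjusted p between 0.0734 and 0.160 by edgeR. DESeq2 gave adjusted p of 1.4e-08 and 6.02e-07 for these comparisons, and limma-voom with quality weights 0.000796 and 0.00465. With a mouse left out the differences stayed between -0.72 and -0.59 and between 0.61 and 0.73.

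Among the remaining inhibitors Zc3h12a, which encodes the RNase Regnase-1, differed in both MRL comparisons, by 0.61 (SE 0.23) against MRL-IRAK4-KD and 0.62 (SE 0.25) against C57BL/6, and by 0.94 (SE 0.35) in the interaction, each with an unadjusted p under 0.05 and none past the adjustment. Commd1 was next at -0.26 (SE 0.13) and -0.21 (SE 0.14), with Nfkbib at 0.22 (SE 0.16) against C57BL/6. Between IRAK4-KD and C57BL/6 mice N4bp1 at 0.17 (SE 0.09) and Tax1bp1 at 0.13 (SE 0.09) followed Tnip1. Between MRL-IRAK4-KD and IRAK4-KD mice, where 8.63% of all genes were called at an unadjusted p under 0.05, 3 were higher, Nfkbil1 at 0.71 (SE 0.21), Nfkbib at 0.50 (SE 0.16) and Pdlim2 at 0.61 (SE 0.22), and all 3 had their highest value in MRL-IRAK4-KD 4. Nfkbil1 at -0.62 (SE 0.29) and Commd1 at -0.34 (SE 0.20) followed Zc3h12a in the interaction.

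**Figure D5:**
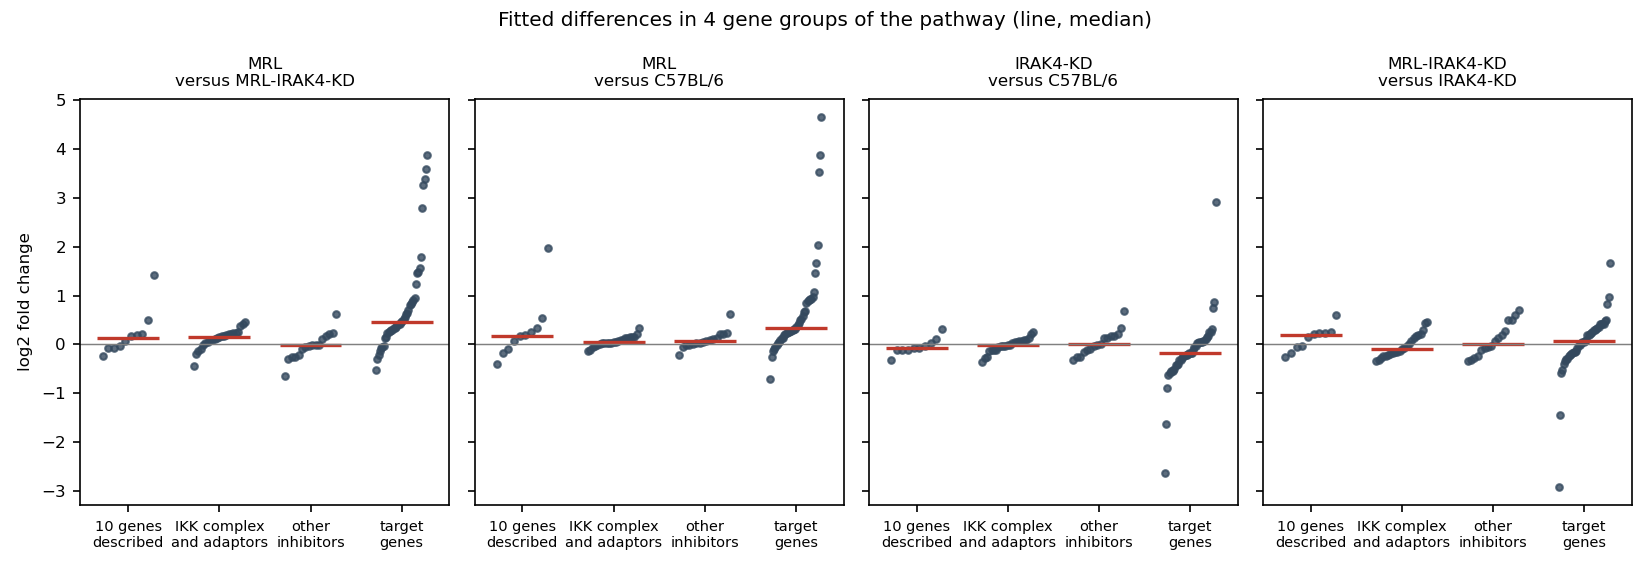
Fitted log2 fold changes (vertical) of the 10 genes described, 23 genes of the IKK complex and adaptors, 16 other inhibitors and 42 target genes in 4 comparisons, with 1 point per gene in rising order and a line at the median. The median of the target genes is 0.47 and 0.33 in the 2 MRL comparisons, and that of the other groups lies between -0.02 and 0.18 there.

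The joint pattern of the 10 members was summarised by the mean of their standardized log2 levels. It was 0.65, 0.08, 0.36 and 0.61 in MRL mice and ranged from -0.64 in IRAK4-KD 3 to 0.31 in C57BL/6 3 elsewhere, so that MRL overlapped the other groups. Among 16095 genes with a mean of at least 1 CPM, the most similar patterns over the 14 mice were those of Arhgap45 (Pearson r 0.883), Acap3 (0.867), Hspa1b (0.860), Ube3b (0.855) and Unc93b1 (0.854). Unc93b1 encodes the chaperone that brings nucleic acid-sensing Toll-like receptors to the endosome, and Hspa1b is an inducible Hsp70 gene. These are the extremes of many genes over few mice and are given as a description.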

How the data were processed

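Hippocampal RNA-seq libraries of 14 mice were analysed from the deposited tables of counts per gene and per transcript. Alignment to mm10 by the authors used HISAT2 2.1.0, counting used StringTie 2.1.0, and the deposited values are whole-number counts without normalization. The other deposited values used were total reads, input by Qubit and library concentration in nM from the sheet of the sequencing core. The methods name a SMART-seq preparation read single-end, whereas the deposited labels and sheet name KAPA HyperPrep mRNA and paired reads, and which applies could not be settled here. Identifiers of 55536 Ensembl genes matched GENCODE M21, and other rows, at most 0.188% of counts, were left out. The 38070 genes with 10 or more counts over all libraries entered 1 robust quasi-likelihood model of the 4 groups in edgeR 4.0.16 (R 4.3.3, TMM), with Benjamini-Hochberg adjustment over these genes. For the members, exact permutation tests (2-sided) used log2(CPM + 0.1). The fit was tested on simulated counts. Alternatives were DESeq2 1.42.0, RLE size factors, no scaling factor beyond library size, limma-voom with sample quality weights (limma 3.58.1), which changes both the tool and the weight of each library, no filter, filterByExpr, a replicate block, only the groups compared, a pseudocount of 1 and each mouse left out. Named genes are the 10 members, the list genes past the threshold or with the 3 smallest p per result, and the 5 most similar patterns. Irak4 and Sele are named outside this rule, Irak4 as the mutated gene and Sele after its values were seen. The members and lists were chosen with earlier results of these data known.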

Additional observations from a re-analysis of the deposited data

Results flagged for a closer look

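In groups of 4 mice the distance of the most extreme mouse from its nearest neighbour was compared with Dixon's 95% limit, which chance passes in about 1 in 20 groups. Of 48 groups of values tested, 9 passed, and 7 of these were values of MRL-IRAK4-KD 4. For Rela the level in MRL-IRAK4-KD 4 was 18.0 CPM and for Nfkbia 41.1 CPM, both above the other mice of the group. In the same library the summed level of the IKK complex and adaptors was 588 CPM and that of the other inhibitors 562 CPM, both below the group. The hippocampal neuron markers summed to 2142 CPM, the pituitary markers to 5.97 CPM and the blood cell markers to 197 CPM in this library, above the group. The endothelial markers of MRL 4 summed to 327 CPM and the pituitary markers of MRL 3 to 87.4 CPM, each above the other MRL mice.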

How the results depend on the processing

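Direction and side of the threshold were compared over the alternatives for the counts of members called and for every named gene, each member in all 5 results. With edgeR, every setting left 0 members past the adjusted threshold in all 5 results, and DESeq2 called 1 in each of the MRL comparisons. At an unadjusted p under 0.05, the count in MRL versus MRL-IRAK4-KD was 2 with DESeq2, 5 with limma-voom with quality weights, 2 without both MRL-IRAK4-KD 4 and IRAK4-KD 3 (chosen after seeing the data), and 1 to 4 with a mouse left out, the 4 without MRL-IRAK4-KD 4. In MRL versus C57BL/6 it was 1 with library size only, 4 with only the 2 groups compared, 4 without both libraries, and 1 to 2 with a mouse left out. It was 1 with DESeq2 and 0 to 1 with a mouse left out in MRL-IRAK4-KD versus IRAK4-KD, and 3 with limma-voom with quality weights, 2 without both libraries and 1 to 2 with a mouse left out in the interaction. Beside the 4 members without MRL-IRAK4-KD 4, 8.52% of all genes were called. For the other settings the shares over all genes are not given. Their counts show how the settings differ and are not read as a result about the members.

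For single genes, 61 alternative values had the opposite sign to the fit of all mice, and in that fit none of the differences concerned had an unadjusted p under 0.05. Values are log2 fold changes, and ranges cover leaving out each mouse and leaving out both libraries named above. In MRL versus MRL-IRAK4-KD, limma-voom with quality weights gave 0.44 for Nfkbia, 0.031 for Nfkbie and -0.053 for Tnfaip3. There the ranges were -0.23 to 0.44 for Nfkbia, -0.15 to 0.075 for Nfkbie, -0.091 to 0.018 for Nfkbiz and -0.14 to 0.40 for Tnfaip3. In IRAK4-KD versus C57BL/6, the ranges were -0.27 to 0.084 for Nfkb2, -0.090 to 0.010 for Rela, -0.11 to 0.15 for Nfkbia, -0.052 to 0.38 for Nfkbie and -0.17 to 0.028 for Nfkbiz. In MRL-IRAK4-KD versus IRAK4-KD, limma-voom with quality weights gave 0.069 for Rel, -0.052 for Nfkbie, 0.065 for Nfkbiz and 0.11 for Tnfaip3. There the ranges were -0.059 to 0.0082 for Nfkb1, -0.054 to 0.40 for Nfkb2, -0.35 to 0.15 for Rel, -0.049 to 0.74 for Nfkbia, -0.13 to 0.22 for Nfkbie, -0.16 to 0.087 for Nfkbiz and -0.47 to 0.066 for Tnfaip3. In the interaction, limma-voom with quality weights gave 0.51 for Nfkbia and -0.023 for Tnip1. There the ranges were -0.067 to 0.38 for Nfkb2, -0.00083 to 0.16 for Rela, -0.21 to 0.58 for Nfkbia, -0.12 to 0.31 for Nfkbie, -0.26 to 0.013 for Nfkbiz, -0.46 to 0.081 for Tnfaip3 and -0.043 to 0.085 for Tnip1. The cause of these turns was not tested beyond leaving out the libraries.

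The labels do not say whether replicate numbers pair the mice. Deviations of same-numbered mice correlated between -0.207 and 0.357 (median -0.01 over 19 pairs). Those of mice with different numbers correlated between -0.390 and 0.374 (median -0.001 over 54 pairs). Such correlations over few mice cannot settle whether same-numbered mice shared an origin. With the number as a replicate block, 2 members in MRL versus MRL-IRAK4-KD and 1 in MRL versus C57BL/6 had an unadjusted p under 0.05, Nfkbia was 0.080 in the first, and the interaction was 0.10 for Nfkbia and 0.060 for Tnfaip3. The share of all genes called with this block is not given either. Counts of at least 32 lay behind each Bcl3 value. Counts of targets such as Ccl2, at 14 to 94, and Sele, at 0 to 281, were lower than that in some libraries only.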
